A study of Homo sapiens with 4 samples.

Results

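The 53 genes described here build and work the machinery that divides the chromosomes: centromere and kinetochore proteins, spindle checkpoint proteins, Aurora kinases and the chromosomal passenger complex, mitotic kinesins, spindle and cytokinesis factors, condensin, separase and its regulators, and the transcription factors of mitotic genes. They were taken by symbol from a fixed list. The list was chosen with earlier results of these data known, so a shared direction among its genes is no independent test. All 53 were found among the 25192 genes of the expression tables and among the 14099 genes that had enough counts to be tested. RNA-seq had been carried out on A549, a line of human lung adenocarcinoma cells, 48 h after infection with retrovirus. The control cells received empty virus (EV), which carries GFP alone, and the FCN3 cells received a virus with the full-length coding sequence of FCN3, a secreted lectin of the innate immune system that can activate complement. Each group had 2 libraries, numbered 1 and 2 in the labels, and all 4 came from A549 only. Nothing in the sources used here says whether same-numbered libraries were infected or sequenced together, so p-values measure the spread between these samples, which may be technical.

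As background, chromosomes are moved by the kinetochore, a protein assembly built at each centromere on nucleosomes that contain CENPA. Its outer layer, the NDC80 complex, grips microtubules, and the spindle checkpoint holds back anaphase until every kinetochore is attached. CDC20 and the anaphase-promoting complex then release separase, which cuts cohesin, after which kinesins, PRC1 and anillin shape the central spindle and the cleavage furrow. Transcripts of these proteins are known to accumulate late in the cell cycle, through complexes of the MuvB core with B-MYB (MYBL2) or FOXM1 that act at a promoter element called the CHR, often beside a CCAAT box bound by NF-Y.

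FCN3 itself had 1 and 0 expected counts in the EV libraries and 722388 and 448352 in the FCN3 libraries, which was at least 112000-fold higher per library total when set against a floor of 3 counts per EV library. Library totals ran from 16353554 to 35733735 expected counts, and replicate 1 was the deeper library of each group. A549 cells should be epithelial: the summed TPM (transcripts per 1000000) of the epithelial list ran from 7823 to 10242, carried by the keratins. EPCAM was only between 1.09 and 3.65 TPM and CDH1 between 3.35 and 9.53 TPM. The leukocyte list summed to at most 1.99 TPM, the fibroblast list to at most 8.28 and the endothelial list and the alveolar list (surfactant proteins and NKX2-1) to at most 0.08 each. The fibroblast sum was higher in replicate 2 of both groups, with 8.28 and 8.02 TPM against 3.57 and 2.76 in replicate 1. COL1A1 carried it, with 8.12 and 7.87 TPM in replicate 2 of EV and FCN3 and 3.39 and 2.70 in replicate 1. COL1A2, DCN, LUM and PDGFRA were each at 0.13 TPM or less in every library. The part of this difference in the results was not tested. In both groups the replicates differed by more than sampling noise, so they were kept as separate samples.

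The transcripts of all 53 genes were lower with the FCN3 virus in the fitted comparison. The median log2 fold change was -0.68, or 62.6% of the EV level, in a range from -1.27 for SPC24 to -0.22 for BUB3. The median over all 14099 tested genes was 0.02, and 48.1% of them were fitted below 0. In 52 of the 53 genes both FCN3 libraries lay below both EV libraries, which was so for 26.5% of all tested genes. The exception was BUB3. The 53 genes together held 0.959% of the counts (95% Wilson limits 0.956 and 0.962) and 0.833% (0.829 and 0.838) in EV replicates 1 and 2, and 0.554% (0.552 and 0.557) and 0.517% (0.514 and 0.520) in FCN3 replicates 1 and 2. Expressed per transcript length, their summed level was 5651 and 5112 TPM with EV and 3275 and 3163 TPM with the FCN3 virus. In bulk RNA, fewer dividing cells and less of these RNAs in each cell cannot be told apart.

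**Figure D1:**
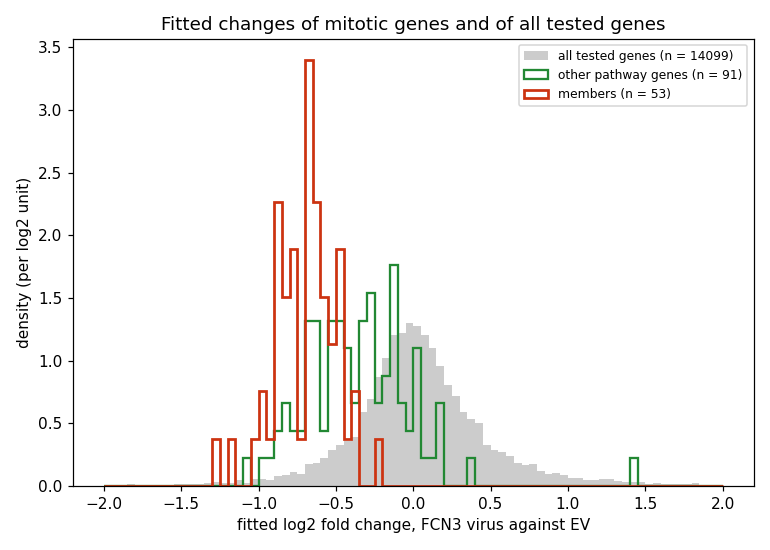
Distribution of the fitted log2 fold change of the FCN3 virus against EV (horizontal axis), as density per log2 unit (vertical axis), for all tested genes (grey), 91 other genes of chromosome segregation (green) and the 53 genes (red); 152 tested genes beyond 2 in size are not drawn. The red distribution lies wholly below 0 around its median of -0.68, the green one around -0.36 and the grey one around 0.02.

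How many of these differences pass a test depended on how the spread between replicates was handled. At an adjusted p under 0.01 in edgeR's quasi-likelihood test, 4 of the 53 genes fell (AURKA, ESPL1, KIF20A and MYBL2), against 0.227% of all tested genes called lower, and 0 rose. At an unadjusted p under 0.05, 52 were lower and 0 higher, against 11.6% and 13.6% of all tested genes, and at an adjusted p under 0.05 the number that fell was 37, against 2.77% of all tested genes. DESeq2 gave 44 lower and 0 higher at an adjusted p under 0.01, where 3.29% of tested genes were lower. With the replicate number as a block in the edgeR fit, all 53 fell, the largest adjusted p being 4.42e-04 for BUB3, while 17.1% of tested genes were called lower. An exact permutation of 2 against 2 libraries has 0.333 as its smallest two-sided p, so no single gene was tested in that way.

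The 4 calls also depended on single libraries. Without EV replicate 1, EV replicate 2, FCN3 replicate 1 or FCN3 replicate 2, edgeR called 3, 13, 0 and 1 of the 53 genes lower, where 0.376%, 0.586%, 0.0995% and 0.184% of all tested genes were lower. At an unadjusted p under 0.05 it gave 49, 53, 51 and 49 lower, against 9%, 9.87%, 7.71% and 6.64% of all tested genes. The median log2 fold change was then -0.57, -0.78, -0.74 and -0.62, and all 53 genes remained fitted below 0 each time. With a library left out its group is a lone sample, which is assumed to vary like the other group.

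KIF20A, a kinesin that carries the chromosomal passenger complex to the central spindle, stood at 134 and 128 CPM (counts per 1000000 library counts, TMM-normalized) in EV replicates 1 and 2 and at 59.2 and 57.5 CPM in FCN3 replicates 1 and 2. Both FCN3 libraries thus held less than either EV library and replicates lay close together, with a log2 fold change of -1.17 ± 0.08 (SE, n = 2 per group; edgeR adjusted p = 0.00385). MYBL2, the B-MYB transcription factor of mitotic promoters, stood at 181 and 183 CPM with EV and 92.5 and 93.1 CPM with the FCN3 virus, a log2 fold change of -0.97 ± 0.08 (edgeR adjusted p = 0.0053). ESPL1, which encodes separase, the protease that cuts cohesin, gave 75.9 and 72.8 CPM against 38.8 and 38.2 CPM, a log2 fold change of -0.95 ± 0.09 (edgeR adjusted p = 0.00824). AURKA, the centrosomal Aurora kinase of spindle assembly, gave 183 and 183 CPM against 101 and 98.2 CPM, a log2 fold change of -0.88 ± 0.08 (edgeR adjusted p = 0.00702). For each of the 4 genes the FCN3 level was between 44.6% and 54.3% of the EV level, and no library of one group reached a library of the other. On GRCh37, the build of the deposited tables, these protein-coding genes lie at chr5:137514408-137523412 (KIF20A, plus strand), chr20:42295659-42345135 (MYBL2, plus), chr12:53662083-53687422 (ESPL1, plus) and chr20:54944445-54967393 (AURKA, minus). The processed pseudogene AURKAPS1 had 10 to 14 counts in every library, so few AURKA reads were assigned to it.

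**Figure D2:**
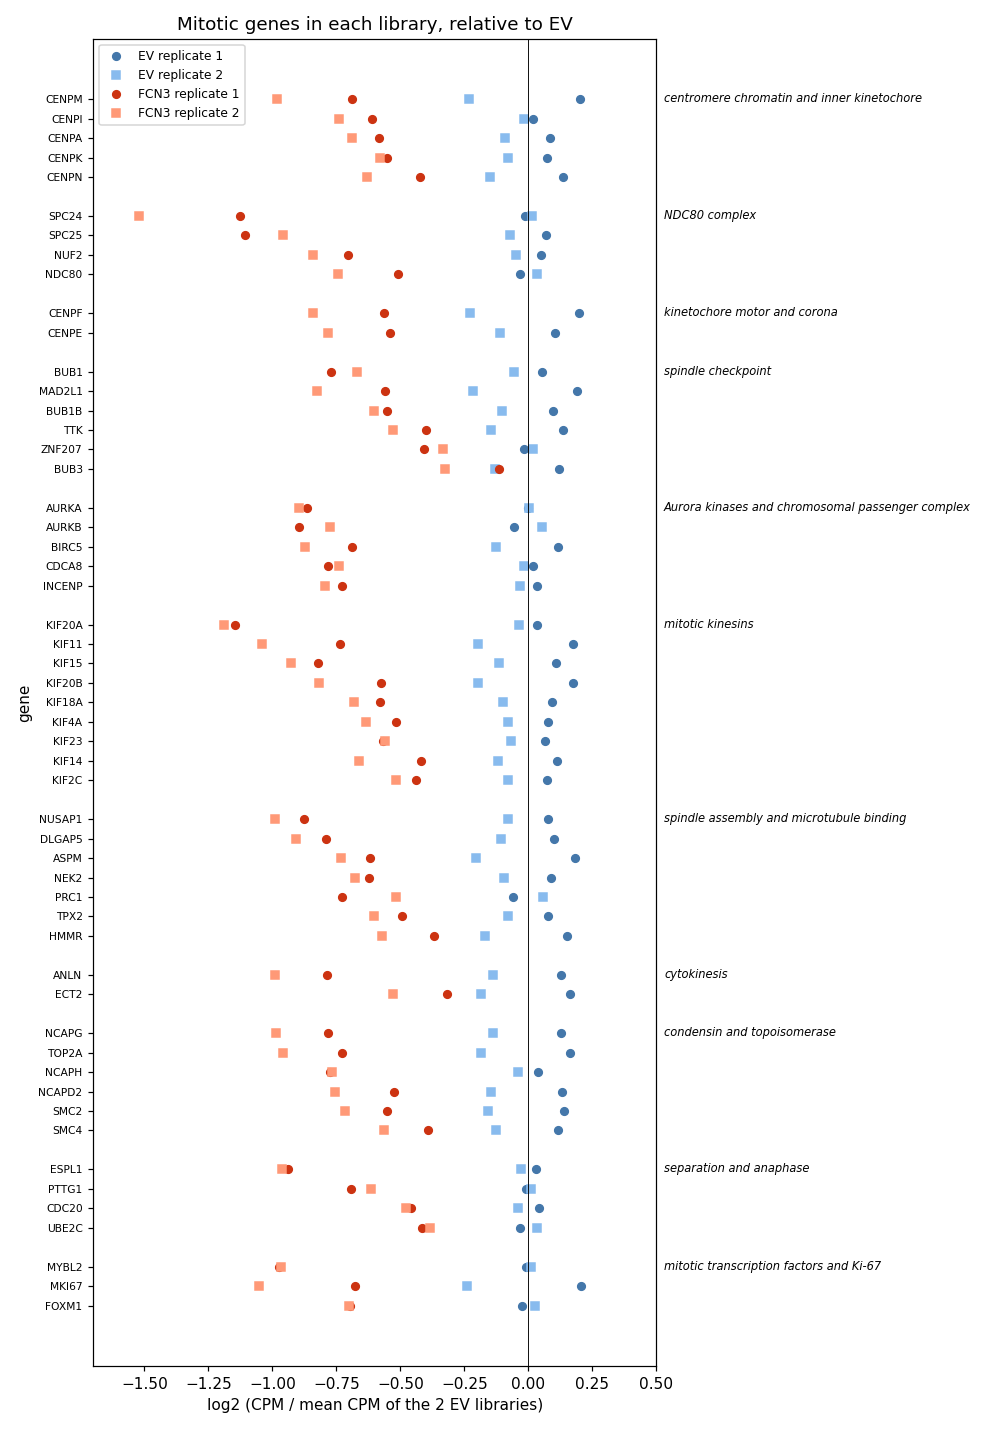
Level of each of the 53 genes in each library, as the log2 ratio of its CPM to the mean CPM of the EV libraries (horizontal axis), by gene and role (vertical axis); circles are replicate 1 and squares replicate 2, blue for EV and red for FCN3. The red symbols lie to the left of the blue ones in every row but BUB3, where FCN3 replicate 1 is to the right of EV replicate 2.

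The centromere chromatin and inner kinetochore group holds CENPA, CENPI, CENPK, CENPM and CENPN. None of these 5 genes passed an adjusted p of 0.01 in edgeR without the block, and 3 passed 0.05. With the block all 5 passed 0.01. For this and the later roles, the shares of all tested genes called lower were 0.227%, 2.77% and 17.1% in the same order. The median log2 fold change of the group was -0.64. CENPM, a subunit of the constitutive centromere network, showed the largest difference, with 19.98 and 14.8 CPM in the EV libraries and 10.8 and 8.80 CPM in the FCN3 libraries (log2 fold change -0.83 ± 0.20). CENPN, which binds the CENPA nucleosome, showed the smallest, with 86.4 and 70.9 CPM against 58.6 and 50.8 CPM (-0.53 ± 0.13). In both genes replicate 1 was above replicate 2 in each group, yet the groups did not overlap.

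The NDC80 complex, a rod of 4 proteins that couples the kinetochore to microtubules, had the lowest median of the 11 roles, -0.91. Its subunit SPC24 gave 5.87 and 5.97 CPM with EV and 2.71 and 2.06 CPM with the FCN3 virus, the largest fitted difference of the 53 genes (log2 fold change -1.27 ± 0.22, edgeR adjusted p = 0.0345). The subunit NDC80 (HEC1), whose head contacts the microtubule, gave 19.8 and 20.8 CPM against 14.3 and 12.1 CPM (-0.61 ± 0.14, edgeR adjusted p = 0.0638). SPC24 was also the least counted of the 53 genes and its FCN3 libraries differed more than its EV libraries. Per transcript length, the EV levels were 18.5 ± 0.50 TPM for NDC80, 22.3 ± 0.20 for SPC24, 35.0 for SPC25 and 53.7 for NUF2 (SD, n = 2), and with the FCN3 virus SPC24 stood at 8.36 ± 1.53, SPC25 at 15.9 and NUF2 at 29.3 TPM. SPC24 and SPC25, the pair that docks on the kinetochore, thus had a lower share of the EV level (41.4% and 48.6%) than NUF2 and NDC80 (58.7% and 65.5%), differences between genes that were not tested.

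Of the corona proteins, CENPF, a large protein of the outermost kinetochore, gave 342 and 255 CPM with EV and 202 and 167 CPM in FCN3 cells (log2 fold change -0.70 ± 0.17), and CENPE, a plus-end-directed kinesin that brings chromosomes to the spindle equator, gave 78.2 and 67.3 CPM against 49.9 and 42.3 CPM (-0.66 ± 0.13). Only CENPE passed an adjusted p of 0.05 without the block and both passed 0.01 with it. In both, replicate 1 was the higher library of each group.

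The spindle checkpoint genes (BUB1, BUB1B, BUB3, MAD2L1, TTK and ZNF207) had the smallest median of the 11 roles, -0.52, and 2 of the 6 passed an adjusted p of 0.05. BUB1, a checkpoint kinase that also marks centromeric chromatin, gave 152 and 141 CPM with EV and 85.8 and 92.2 CPM in FCN3 cells (log2 fold change -0.72 ± 0.09, edgeR adjusted p = 0.0153). BUB3, which anchors the BUB kinases to the kinetochore, gave 236 and 198 CPM against 200.2 and 173 CPM (-0.22 ± 0.12, edgeR adjusted p = 0.346). FCN3 replicate 1 of BUB3 was above EV replicate 2, the single overlap among the 53 genes. Its call rests on the comparison within replicate numbers, where the adjusted p is 4.42e-04 in edgeR, and DESeq2 with the same block gave an adjusted p of 0.0159, which misses 0.01. ZNF207 (BUGZ), a partner that stabilises BUB3, had the next smallest log2 fold change, -0.37 ± 0.08.

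All 5 genes of the Aurora kinases and chromosomal passenger complex (AURKA, AURKB, BIRC5, CDCA8 and INCENP) passed an adjusted p of 0.05, and AURKA passed 0.01. The differences were close together, with log2 fold changes between -0.88 for AURKA and -0.76 for INCENP. INCENP, the scaffold that activates Aurora B, gave 111 and 106 CPM with EV and 65.2 and 62.2 CPM with the FCN3 virus (-0.76 ± 0.08, edgeR adjusted p = 0.0122). AURKB, the catalytic subunit, BIRC5 (survivin) and CDCA8 (borealin), which target the complex to centromeres, stood between these values. The germline relative AURKC had between 2 and 9 counts per library.

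Of the 9 mitotic kinesins, KIF20A fell as given above, 7 passed an adjusted p of 0.05 and all 9 passed 0.01 with the block. KIF2C (MCAK), which depolymerises microtubules to release wrong attachments, had the smallest difference, with 90.7 and 81.6 CPM with EV and 63.5 and 60.1 CPM in FCN3 cells (log2 fold change -0.48 ± 0.10). KIF11 (Eg5), the motor that pushes the spindle poles apart, and KIF15, which can stand in for it, had log2 fold changes of -0.88 each. KIF4A, a chromokinesin, was at -0.57, and its near-identical copy KIF4B had at most 6.03 expected counts in a library.

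In the spindle assembly and microtubule binding group (TPX2, PRC1, ASPM, DLGAP5, HMMR, NUSAP1 and NEK2), 5 of 7 genes passed an adjusted p of 0.05. NUSAP1, which bundles microtubules around chromosomes, gave 124 and 112 CPM with EV and 64.3 and 59.4 CPM in FCN3 cells (log2 fold change -0.93 ± 0.10, edgeR adjusted p = 0.0118). HMMR, a spindle-pole protein that localises TPX2, gave 113 and 90.9 CPM against 79.0 and 68.7 CPM (-0.47 ± 0.14). In the cytokinesis pair, ANLN (anillin), the scaffold of the contractile ring, gave 359.6 and 299 CPM against 191 and 166 CPM (-0.89 ± 0.13). ECT2, the exchange factor that switches on RhoA at the furrow, gave 292 and 229 CPM against 209 and 181 CPM (-0.42 ± 0.14). The groups did not overlap for any of these genes, although EV replicate 2 came nearer to the FCN3 libraries than EV replicate 1 in the 4 genes given.

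Condensin and topoisomerase II alpha, which compact and disentangle the chromosomes, had a median of -0.70, and 4 of the 6 genes passed an adjusted p of 0.05. NCAPG, a subunit of condensin I, gave 100.2 and 83.3 CPM with EV and 53.3 and 46.4 CPM in FCN3 cells (log2 fold change -0.88 ± 0.13). SMC4, a core ATPase that condensin I and II share, gave 319 and 270.2 CPM against 225 and 199 CPM (-0.48 ± 0.12). The condensin I subunits NCAPH and NCAPD2 were at -0.77 and -0.64 and the other shared ATPase, SMC2, at -0.63. NCAPG and NCAPH thus had larger fitted differences than the shared pair, while NCAPD2 and SMC2 lay within their SEs of 0.13 each. Differences between these genes were not tested.

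Separation and anaphase genes had a median of -0.56 and all 4 passed an adjusted p of 0.05. Beside ESPL1, the smallest difference was in UBE2C, the ubiquitin-conjugating enzyme of the anaphase-promoting complex, with 136 and 143 CPM with EV and 104 and 107 CPM in FCN3 cells (log2 fold change -0.40 ± 0.08). PTTG1 (securin), the inhibitor of separase, was at -0.65 and CDC20, the activator of the complex, at -0.47. The PTTG1 copies PTTG2 and PTTG3P had 0 counts in every library. Of the last group, FOXM1, a transcription factor of late cell-cycle genes, gave 194 and 201 CPM against 122 and 121 CPM (-0.70 ± 0.08, edgeR adjusted p = 0.0121). MKI67, the source of the Ki-67 antigen of dividing cells, had a log2 fold change of -0.85 ± 0.19 (edgeR adjusted p = 0.062).

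Per transcript length, the 53 genes covered a wide range of levels. Their median was 64.5 TPM with EV and 36.3 TPM with the FCN3 virus. With EV the highest were TOP2A at 398 ± 69.8 TPM, UBE2C at 392 ± 9.33, PTTG1 at 367 ± 1.75 and CDC20 at 335 ± 15.2 (SD, n = 2). UBE2C, PTTG1 and CDC20 lay within 1 SD of TOP2A, while the gaps from UBE2C to PTTG1 and from PTTG1 to CDC20 were larger than the SDs of those genes. The lowest were KIF15 at 13.4 ± 1.54, CENPE at 15.7 ± 1.76 and NDC80 at 18.5 ± 0.50 TPM. The gaps between these neighbours were larger than their SDs.

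The difference between replicates bears on which genes passed without the block. Replicate 1 was above replicate 2 in both groups for 38 of the 53 genes and below it in both for 6. How often all tested genes kept the same order in both groups was not counted. A test of replicate 1 against 2 with the group in the fit called 20 of the 53 genes higher in replicate 1 (10.5% of all tested genes). Averaged over the groups MKI67 showed the widest gap, 0.44 on the log2 scale with EV and 0.38 with the FCN3 virus. Within replicate 1 the median log2 ratio of FCN3 to EV was -0.71, and within replicate 2 it was -0.62, so the direction held within each number. The difference was larger in the replicate 1 pair for 42 of the 53 genes, a count that was not made over all tested genes. The 4 genes that fell without the block are ones with large differences and nearly equal replicates.

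**Figure D3:**
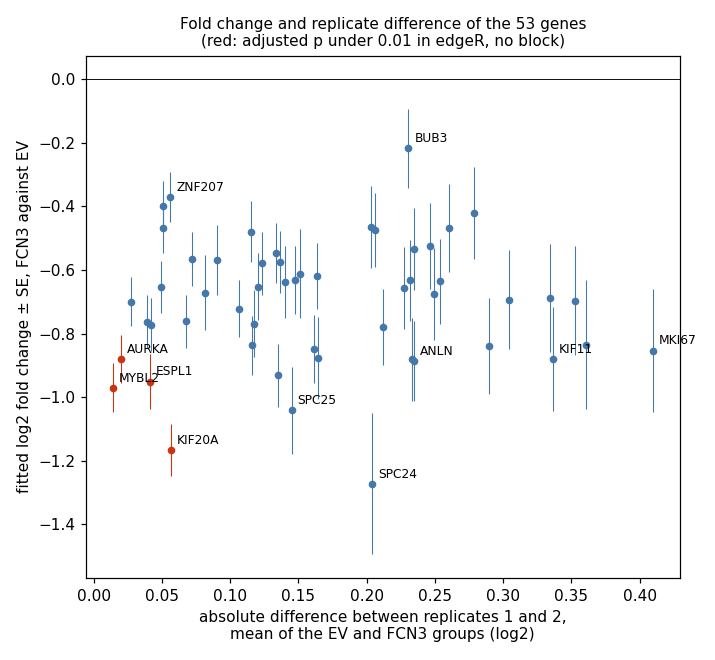
Fitted log2 fold change with its SE (vertical axis) against the absolute log2 difference between replicates 1 and 2, averaged over the EV and FCN3 groups (horizontal axis), for each of the 53 genes; red marks an adjusted p under 0.01 in edgeR without the block. The 4 red genes (AURKA, ESPL1, KIF20A and MYBL2) lie at the left, among the smallest replicate differences, and MKI67 lies farthest to the right.

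The promoters of the 53 genes were read next, to show what they share beyond function. RefSeq windows on GRCh38.p14, from 250 bases before to 50 after the gene's start, matched 45 of the 53 genes, and CENPM, BUB3, TTK, AURKA, BIRC5, TPX2, UBE2C and FOXM1 had no entry. The sequences below are the 100 bases just before the start, 5′ to 3′ in the direction of the gene, with CHR motifs (TTTGAA) and CCAAT boxes (CCAAT or its complement ATTGG) in capitals. They are shown for ESPL1 and KIF20A, both called lower in edgeR without the block. The window of KIF20A holds CCAAT boxes without a CHR. Also shown are 4 further genes with both motifs in this stretch, CDCA8 and INCENP of the chromosomal passenger complex, PRC1 and KIF4A. These 4 were fitted lower too, with log2 fold changes of -0.76, -0.76, -0.62 and -0.57. In edgeR without the block they passed an adjusted p of 0.05 but not 0.01.
ESPL1 (chr12:53268199-53268298, plus strand): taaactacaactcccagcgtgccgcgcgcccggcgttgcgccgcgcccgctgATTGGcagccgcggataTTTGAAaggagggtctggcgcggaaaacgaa
CDCA8 (chr1:37692416-37692515, plus strand): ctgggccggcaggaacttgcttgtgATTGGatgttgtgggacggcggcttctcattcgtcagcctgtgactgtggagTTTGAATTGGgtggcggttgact
INCENP (chr11:62123911-62124010, plus strand): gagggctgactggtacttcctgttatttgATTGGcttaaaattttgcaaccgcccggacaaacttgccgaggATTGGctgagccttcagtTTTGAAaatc
PRC1 (chr15:90994536-90994635, minus strand): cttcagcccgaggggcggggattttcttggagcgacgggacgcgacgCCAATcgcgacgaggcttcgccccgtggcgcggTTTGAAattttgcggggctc
KIF4A (chrX:70290004-70290103, plus strand): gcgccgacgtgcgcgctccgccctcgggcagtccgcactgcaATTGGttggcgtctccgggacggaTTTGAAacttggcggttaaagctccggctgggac
KIF20A (chr5:138179012-138179111, plus strand): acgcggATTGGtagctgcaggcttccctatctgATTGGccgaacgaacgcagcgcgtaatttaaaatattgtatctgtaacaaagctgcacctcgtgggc

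In ESPL1 the CHR began at position -31 from the start and the CCAAT box at -48, and KIF4A (-34 and -58) and PRC1 (-20 and -53) had the same order, the CCAAT box farther from the start. In CDCA8 the last CCAAT box overlapped the CHR by 1 base. Searched on both strands, a CHR (TTTGAA or TTCGAA) was in 33 of the 45 windows (73.3%), against 16.4% of all 35116 windows and 10.5% of 9892 other tested genes. A CCAAT box was in 32 (71.1%), against 34.6% of all windows and 36.3% of other tested genes. Both were in 25 (55.6%), against 6.38% and 4.4%. An E2F motif (TTTGGCG or TTTCGCG) was in 4 (8.89%), against 3.19% and 5.05%. In 81 windows of the other pathway genes listed later, a CHR was in 40.7%, a CCAAT box in 55.6%, both in 24.7% and an E2F motif in 11.1%, so that these genes stood between the 53 genes and the other tested genes for the CHR and the CCAAT box, and above the 53 genes for E2F. A match is a run of letters and does not show that a protein binds there.

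Most CHR matches lay close to the start. Between positions -60 and +50, a range chosen after the positions were seen, 28 of the 45 windows (62.2%) held a CHR, against 2.99% of other tested genes, and 33 of the 44 matches lay there. Medians with and without a motif were close. The median log2 fold change was -0.69 for the 33 genes with a CHR and -0.66 for the 12 without, and -0.69 for the 32 genes with a CCAAT box and -0.66 for the 13 without. Of the genes that fell without the block, MYBL2 had neither motif in its window, KIF20A had CCAAT boxes at -94 and -67, and ESPL1 had both motifs.

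The surrounding pathway was described with 91 further genes of kinetochores, cohesin, condensin II, the anaphase-promoting complex, the spindle and the MuvB core, all of which were tested. Their median log2 fold change was -0.36, and 79 were fitted lower and 12 higher, where 48.1% of all tested genes were fitted lower. Both FCN3 libraries lay below both EV libraries in 64, which was so for 26.5% of all tested genes. In edgeR 3 fell and 1 rose at an adjusted p under 0.01 (backgrounds 0.227% and 0.738%), and with the replicate block in edgeR 60 were called lower and 2 higher (backgrounds 17.1% and 19.1%). The highest share that fell with the block was in condensin II, with 3 of 3 genes, followed by the outer kinetochore with 8 of 9, spindle and cytokinesis genes with 21 of 26 and the inner kinetochore with 11 of 14. It was lower for the anaphase-promoting complex (8 of 15), cohesin and its regulators (6 of 12) and corona and checkpoint genes (3 of 7), and no gene of the 5 in the MuvB core fell with the block (0 lower with DESeq2 and 0 at an unadjusted p under 0.05 in edgeR), while LIN37 of that core was called higher with the block in edgeR but not in DESeq2.

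STMN1 (stathmin), which destabilises microtubules, gave 207 and 193 CPM with EV and 99.97 and 91.1 CPM with the FCN3 virus, a log2 fold change of -1.07 ± 0.09 (edgeR adjusted p = 0.00679). SPAG5 (astrin), which steadies kinetochore attachments, gave 216 and 203 CPM against 110.3 and 109 CPM (-0.93 ± 0.08, edgeR adjusted p = 0.007). PLK1, the Polo kinase of mitotic entry and kinetochore attachment, gave 241 and 227 CPM against 129 and 124 CPM (-0.89 ± 0.08, edgeR adjusted p = 0.00805). In these 3 genes the FCN3 level was between 47.8% and 54.1% of the EV level, close to the 4 called genes above, but without FCN3 replicate 1 or without FCN3 replicate 2 0 of the 91 genes were called lower by edgeR (47 and 38 at an unadjusted p under 0.05). OIP5, a subunit of the machinery that loads CENPA, was among the 3 largest decreases with the block, with 15.8 and 14.9 CPM against 8.17 and 7.64 CPM (-0.95 ± 0.14, edgeR adjusted p = 0.0233 without the block). LIN37, a MuvB subunit, gave 8.97 and 12.1 CPM against 12.3 and 14.5 CPM (0.37 ± 0.20, edgeR adjusted p = 0.328 without the block and 0.00496 with it). In DESeq2 with the block the adjusted p of LIN37 was 0.242.

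**Figure D4:**
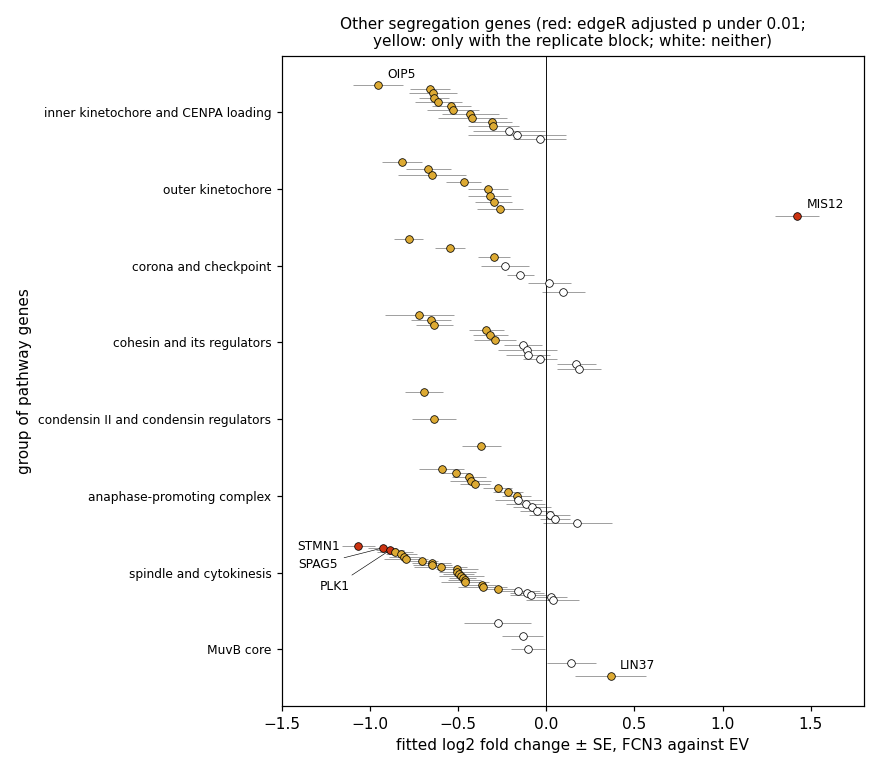
Fitted log2 fold change with its SE (horizontal axis) of 91 further segregation genes, by group (vertical axis); red marks an adjusted p under 0.01 in edgeR, yellow one reached only with the replicate block and white neither. MIS12 stands alone to the right at 1.42, while STMN1, SPAG5 and PLK1 are the red points to the left.

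MIS12 was the pathway gene that rose without the block. It is a subunit of the complex that joins the NDC80 complex to the inner kinetochore, and it gave 34.0 and 28.9 CPM with EV and 90.0 and 79.2 CPM with the FCN3 virus, a log2 fold change of 1.42 ± 0.13 (edgeR adjusted p = 0.00736). Both FCN3 libraries lay far above both EV libraries, at 268% of the EV level. Its partner subunits DSN1, NSL1 and PMF1 were among the 8 outer kinetochore genes fitted lower, with small log2 fold changes of -0.32, -0.30 and -0.33. Their edgeR adjusted p were 0.182, 0.161 and 0.149 without the block, and under 0.01 with it. On GRCh37 the annotation of MIS12 (chr17:5389605-5394134, plus strand) overlaps that of DERL2 (chr17:5374574-5390131, minus strand), an endoplasmic reticulum protein that takes part in the export of misfolded proteins. DERL2, looked up after the value of MIS12 was seen, gave 47.1 and 47.7 CPM with EV and 127 and 116 CPM with the FCN3 virus (1.36 ± 0.09, edgeR adjusted p = 0.00305). The strand setting of the counting is not given in the sources used here, so the share of MIS12 counts that could come from DERL2 transcripts was not tested. Without FCN3 replicate 1, the adjusted p of MIS12 was 0.0118, in a range from 0.00292 to 0.0118 as each library was left out, and limma on TPM gave 0.0127 with a pseudocount of 1 and 0.0115 with 0.1.

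The starts of MIS12 and DERL2 in RefSeq are 195 bases apart on GRCh38.p14 and point away from each other. The stretch between them is shown because both genes rose, in the direction of MIS12 and with CCAAT boxes in capitals.
MIS12 and DERL2 (chr17:5486179-5486373, plus strand): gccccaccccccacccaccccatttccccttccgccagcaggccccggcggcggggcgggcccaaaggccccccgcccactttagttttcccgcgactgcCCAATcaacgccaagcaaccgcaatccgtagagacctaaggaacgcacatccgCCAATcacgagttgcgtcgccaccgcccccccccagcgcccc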

How the data were processed

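RNA-seq of 4 A549 libraries was analysed, 2 from EV and 2 from FCN3 virus cells, with groups and replicate numbers from the labels. The authors trimmed reads from stranded mRNA libraries, aligned them to hg19 with STAR 2.6.1d and quantified genes with RSEM. Each deposited table holds expected counts, as RSEM estimated them without normalization, and TPM, in which the authors corrected for length and depth. The annotation and strand setting of the counting are not given in the sources used here. FPKM was not used.

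Counts were rounded to whole numbers and tested in R 4.3.3 with edgeR 4.0.16 (TMM, filterByExpr, quasi-likelihood test, Benjamini-Hochberg adjustment over all 14099 tested genes, threshold 0.01), without a block. CPM are TMM-normalized, except the floor of 3 counts, which was 0.084 to 0.183 per 1000000 of the library total. Intervals and floors cover counting error only. Alternatives were the replicate number as a block, DESeq2 1.42.0 with and without it, RLE factors, FCN3 left out, other filters, the legacy method, limma 3.58.1 on log2(TPM + 1) and log2(TPM + 0.1), other thresholds and each library left out. Code was tested on simulated data.

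The members and lists were chosen with earlier results of these data known. Per-library values are given for members called, for the largest and smallest change in each role, for pathway genes called, and for the 3 largest decreases and increases of the pathway with the block, of which 2 were increases. Further genes are given by fold change or mean TPM, except DERL2. Same numbers in the labels do not state a shared culture. Across 8268 genes whose mean log2 CPM was over 4, the difference between replicates 1 and 2 with EV correlated with that with the FCN3 virus (r = 0.80, across genes, which are not independent). Gene locations are from GENCODE on GRCh37 and promoter windows from RefSeq on GRCh38.p14, and coordinates were not converted. Where a gene had several windows (5 of 45), the first was used.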

Additional observations from a re-analysis of the deposited data

How the results depend on the processing

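All 53 genes were fitted lower under every alternative. All 53 genes passed the count filter, although SPC24 had only 41 to 214 counts per library. Whether depth limited the calls was not tested. The 2 libraries per group limit the test, and the counts of calls depended on the fit. Without the block edgeR called 104 genes higher and 32 lower (76.5% of calls higher). DESeq2 called 613 higher and 464 lower (56.9%), with 44 of the 53 genes and 28 of the 91 pathway genes lower. With the replicate block, edgeR called 2690 higher and 2413 lower (52.7%), with 53 of the 53 genes lower and 60 pathway genes lower and 2 higher, and DESeq2 with the block called 1145 higher and 1112 lower (50.7%), with 52 and 45 lower. With 2 pairs, the shared replicate number may or may not mark a shared batch. At an adjusted p under 0.05 edgeR called 624 higher and 390 lower (61.5%), with 37 and 26 lower. When a log2 change of 1 or more was also required, 1 of the 53 genes (KIF20A) and 1 pathway gene (STMN1) stayed lower. On log2(TPM + 1) and log2(TPM + 0.1) limma gave medians of -0.75 and -0.78 for the 53 genes, and 0 pathway genes higher in each at an adjusted p under 0.01 (1 in each at an unadjusted p under 0.05), with 6 lower on the latter. These scales moved the median of all genes from 0.02 to -0.07 and -0.09. When libraries were left out singly, all genes called lower ranged from 14 to 86 and higher from 78 to 181, the 53 genes called lower from 0 to 13, pathway genes lower from 0 to 7 and higher from 0 to 1, and the median from -0.78 to -0.57. Without FCN3 replicate 1, 0 of the 53 genes and 0 pathway genes were called in either direction by edgeR, against 51 and 47 lower at an unadjusted p under 0.05. Limma did not call ESPL1 on either scale. It called 3 of the 53 genes lower on log2(TPM + 1) (AURKA, KIF20A and MYBL2) and 4 on log2(TPM + 0.1), the fourth being FOXM1. The other alternatives (RLE factors, FCN3 left out, filters, the legacy method) left 4 of the 53 genes called lower. Counting promoter matches only before the start gave 23 genes with a CHR, 32 with a CCAAT box and 2 with an E2F motif.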
